A study of Mus musculus with 4 samples.

Results

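The 8 genes described here encode the cGAS-STING pathway of the mouse and its brakes, among 27998 genes in the deposited table. They were taken by symbol: Mb21d1 (cGAS), Tmem173 (STING), Tbk1, Ikbke, Irf3, Trex1, Samhd1 and Enpp1. The question is which cells of a malignant pleural effusion carry the transcripts needed to respond to cGAMP, and whether those transcripts differed after cGAMP was given. Effusions had been raised in C57BL/6 mice with Lewis lung carcinoma (LLC), a mouse lung tumour line. On day 11 the mice received an intrapleural injection of a nanoparticle carrying 1 µg of cGAMP together with 30 µg of the anti-PD-L1 antibody 10F.9G2 (the combination), the nanoparticle with 1 µg of cGAMP alone (LNP-cGAMP), 30 µg of the antibody alone (anti-PD-L1), or PBS. Pleural cells were collected on day 13, 48 h later, red cells were lysed, and cells of 3 mice per treatment were mixed in equal numbers and run as 1 droplet library. With 1 library per treatment there was no test between treatments. The labels name no empty-particle group, so the particle and its cargo cannot be told apart.

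In this pathway cGAS binds DNA in the cytosol and makes the cyclic dinucleotide cGAMP, which binds STING on the endoplasmic reticulum. STING then moves to the Golgi and recruits the kinase TBK1, helped by its relative IKKε (Ikbke), and TBK1 phosphorylates the transcription factor IRF3, which turns on type I interferon genes. Given from outside, cGAMP bypasses cGAS: a cell needs STING and what lies downstream of it. Free cGAMP outside cells enters through carriers and channels unless the ectonucleotidase ENPP1 cleaves it first. Here cGAMP was given in a nanoparticle, and its route into the cells was not measured. TREX1 degrades cytosolic DNA and SAMHD1 limits nucleotide pools and nucleic acid debris, so that both restrain the cGAS arm.

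The libraries held between 68828158 and 88855120 UMIs (unique molecular identifiers, each marking 1 RNA molecule), and 2838 to 3842 cells were kept per library. Clusters were named from marker genes and are called "-like". Monocyte/macrophage-like cells (2332, 1925, 2040 and 1615 cells in the combination, LNP-cGAMP, anti-PD-L1 and PBS), neutrophil-like cells (590, 1080, 926 and 867), T cell-like cells (160, 238, 147 and 81) and conventional dendritic cell-like cells (75, 55, 108 and 122) had at least 50 cells in every library and were compared. Markers of their lists were detected in the 4 compared classes, but the naming of the dendritic cell-like class was less certain. Cluster 12, with 315 of the dendritic cell-like cells, had 11 of 15 markers detected but 0 among its 10 leading genes. When single cells were scored on the marker lists, 156 dendritic cell-like cells scored best as such, 164 as monocyte/macrophage and 23 as plasmacytoid dendritic cells. At clustering resolution 2 a cluster of 279 cells led by H2-Eb1 scored best as dendritic cell but was left unnamed. Its 10 leading genes included the plasmacytoid markers Siglech and Ccr9. The erythroid-like cluster carried its markers in PBS alone: they summed to 9.03, 11.7, 132 and 382100 per 1000000 UMIs in the combination, LNP-cGAMP, anti-PD-L1 and PBS, and the class is not described further. The LNP-cGAMP library had 18 tumour-like cells with a median of 1260.5 UMIs. By Xist and Y-linked genes, 78.5% of sexed cells were called female in the combination, 0.185% with LNP-cGAMP alone, 68.1% with anti-PD-L1 alone and 0.948% with PBS, and the labels give no sex. Comparisons of a library given the antibody with one that was not therefore also differ in called sex. These are anti-PD-L1 and the combination against PBS, and the combination against LNP-cGAMP. In them antibody and sex cannot be told apart. Each pair of libraries shared 19 to 25 cell barcodes, against 1.42 to 2.01 from the size of the barcode set. Leaving out the 23 to 30 cells per library that carried such barcodes ended no call of the 7 measured genes.

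Positions are on GRCm38: Mb21d1 at chr9:78430526-78443237, Tbk1 at chr10:121546455-121586787, Ikbke at chr1:131254343-131279606, Trex1 at chr9:109057933-109059734, Samhd1 at chr2:157097533-157135265 and Enpp1 at chr10:24637914-24712159, all on the minus strand, and Irf3 at chr7:44997648-45002848 on the plus strand, with Tmem173 given further on. Promoter windows of 300 bases (250 before to 50 after the start, RefSeq, GRCm38.p6) were at hand for 7 of the 8 genes. Those of Tbk1 and Enpp1 are shown because these genes were called between treatments in macrophage-like cells, and that of Mb21d1 because it held the kB core searched for, which is in capitals.
Tbk1 (chr10:121586745-121587044, minus strand): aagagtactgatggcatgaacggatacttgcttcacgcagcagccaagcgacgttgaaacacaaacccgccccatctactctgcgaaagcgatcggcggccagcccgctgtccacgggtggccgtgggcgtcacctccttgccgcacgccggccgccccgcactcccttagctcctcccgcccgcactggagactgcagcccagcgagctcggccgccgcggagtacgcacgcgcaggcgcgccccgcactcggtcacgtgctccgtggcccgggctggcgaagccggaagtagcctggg
Enpp1 (chr10:24712110-24712409, minus strand): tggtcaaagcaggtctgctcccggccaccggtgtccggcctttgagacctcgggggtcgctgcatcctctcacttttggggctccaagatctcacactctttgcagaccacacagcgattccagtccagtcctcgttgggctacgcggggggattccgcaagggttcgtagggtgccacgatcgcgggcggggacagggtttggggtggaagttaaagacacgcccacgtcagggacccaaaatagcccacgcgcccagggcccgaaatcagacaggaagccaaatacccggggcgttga
Mb21d1 (chr9:78443188-78443487, minus strand): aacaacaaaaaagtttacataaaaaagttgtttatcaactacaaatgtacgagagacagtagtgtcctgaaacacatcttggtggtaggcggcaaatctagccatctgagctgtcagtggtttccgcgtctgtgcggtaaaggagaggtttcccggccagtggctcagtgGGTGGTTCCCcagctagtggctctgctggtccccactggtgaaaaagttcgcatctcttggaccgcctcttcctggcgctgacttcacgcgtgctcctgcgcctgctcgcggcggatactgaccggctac
Searched on both strands, the core of the interferon-stimulated response element (GAAA, any 2 bases, GAAA), a site for IRF factors, was in 0 of the 7 genes' windows and in 3.44% of 32851 windows genome-wide. The kB core (GGGA, any 4 bases, CC), bound by NF-kB, was in the Mb21d1 window on the opposite strand, 80 bases before the start, and in 20.7% of all windows. These are matches of letters in a short window and say nothing of binding.

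Trex1, the main cytosolic DNA exonuclease, had 0 UMIs over all barcodes of all 4 libraries, cells and near-empty droplets alike. All 1147 of its exonic bases (100%) lie inside exons of Atrip, a partner of the checkpoint kinase ATR, on the same strand in the GENCODE annotation. Atrip itself had 23, 15, 13 and 18 UMIs over all barcodes of the combination, LNP-cGAMP, anti-PD-L1 and PBS. Reads from these bases match both genes, and whether this is behind the count of 0 was not tested. The value is therefore not a level of Trex1, and 7 of the 8 genes were measured.

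Mb21d1, the DNA sensor, was low in every compared class, and none of its class-level folds was called. In conventional dendritic cell-like cells it had 25.1, 27.6, 24.8 and 20.2 CPM in the combination, LNP-cGAMP, anti-PD-L1 and PBS, where CPM is the gene's UMIs in each 1000000 UMIs of a class in a library. In monocyte/macrophage-like cells it had 11.8, 13.7, 13.7 and 13.0 CPM in the same order, and LNP-cGAMP over PBS was 1.06-fold (95% interval 0.945 to 1.18). Inside macrophage-like clusters 2 folds were called, both lower: the combination was 0.602 of anti-PD-L1 in cluster 5 (0.391 to 0.899) and 0.494 of LNP-cGAMP in cluster 9 (0.329 to 0.722), on 30 and 33 UMIs in the combination. All intervals given here cover counting error only, not differences between mice. T cell-like cells held 16.7 to 22.0 CPM and NK cell-like cells 21.7 to 26.6, while neutrophil-like cells held 5.22 to 9.31 CPM. Tumour-like cells had 0, 0, 1 and 3 Mb21d1 UMIs in the combination, LNP-cGAMP, anti-PD-L1 and PBS, and counts of 0, with up to 3 counts allowed for, leave room for 2.03 CPM in the combination and 16.8 in LNP-cGAMP. Among the 4 compared classes the order was dendritic cell-like, T cell-like, macrophage-like and neutrophil-like in each library, with dendritic cell-like and T cell-like intervals overlapping. In anti-PD-L1 and PBS the T cell-like and neutrophil-like intervals also overlapped those of macrophage-like cells.

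Tmem173, the receptor for cGAMP (chr18:35733679-35740554, GRCm38, minus strand), was highest in dendritic cell-like and lowest in neutrophil-like cells among the 4 compared classes. Dendritic cell-like cells held 146, 171, 159.9 and 149.5 CPM in the combination, LNP-cGAMP, anti-PD-L1 and PBS. Monocyte/macrophage-like cells held 118, 165, 97.1 and 75.6 CPM in the same libraries. The dendritic cell-like level thus stayed within a narrow range, while the macrophage-like level was near it in LNP-cGAMP and near that of T cell-like cells in PBS. In LNP-cGAMP the dendritic cell-like level rested on 136 UMIs, and its interval overlapped that of macrophage-like cells. T cell-like cells held 61.5, 67.4, 69.1 and 76.6 CPM, and neutrophil-like cells 10.4, 12.4, 10.2 and 19.7 CPM.

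**Figure D1:**
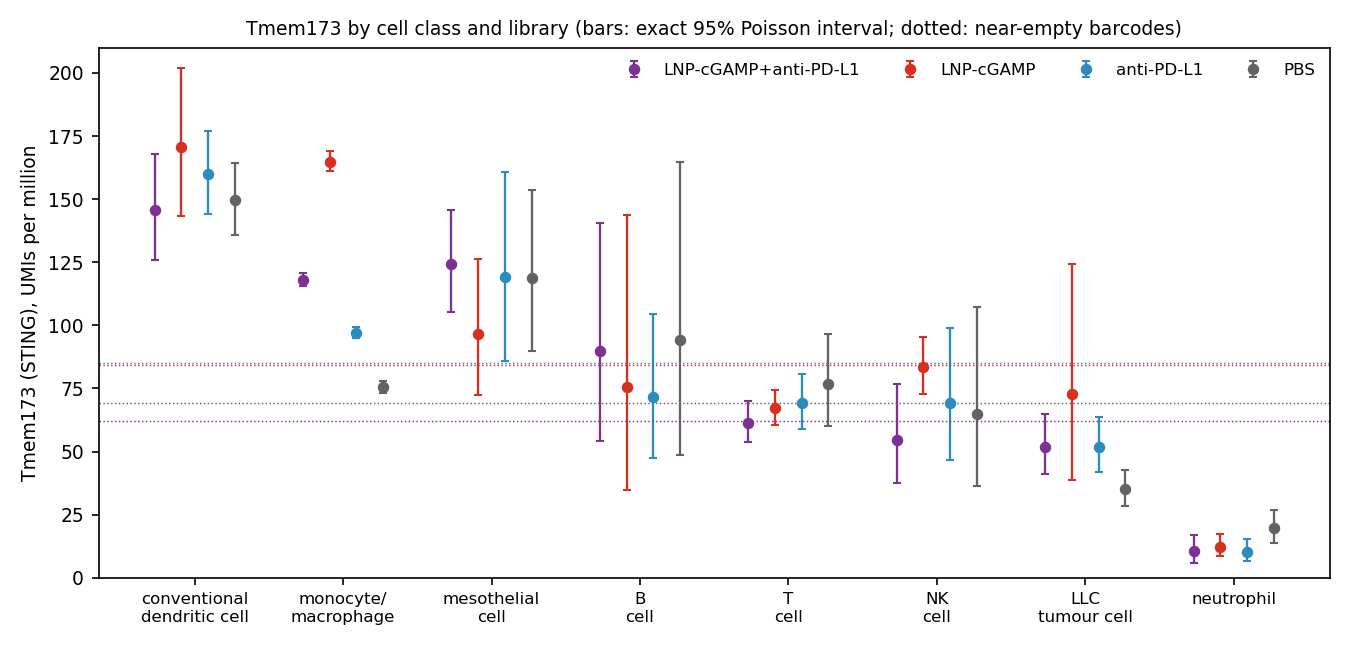
Tmem173 CPM (y axis) in 8 cell classes (x axis), 1 point per library with the exact 95% Poisson interval; dotted lines give the level among near-empty barcodes. Macrophage-like cells are at 165 in LNP-cGAMP and 75.6 in PBS, dendritic cell-like cells lie between 146 and 171, and neutrophil-like cells lie between 10.2 and 19.7.

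Mesothelial-like cells, few in number, held 124, 96.6, 119 and 119 Tmem173 CPM in the combination, LNP-cGAMP, anti-PD-L1 and PBS. Tumour-like cells held 52.0, 72.6, 51.8 and 35.0 CPM, so that in PBS these cells were below every other class drawn except the neutrophil-like cells. The level among near-empty barcodes was 62.0, 84.5, 85.2 and 69.2 CPM, above that of neutrophil-like cells in each library. Free RNA was estimated at 0.811%, 3.36%, 1.98% and 14.0% of the UMIs of neutrophil-like cells in the combination, LNP-cGAMP, anti-PD-L1 and PBS, which corresponds to 0.503, 2.84, 1.69 and 9.66 of their Tmem173 CPM. Macrophage-like cells are large and numerous, and they held 88.8%, 82.0%, 89.7% and 85.8% of all Tmem173 UMIs in cells of the combination, LNP-cGAMP, anti-PD-L1 and PBS.

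Depth per cell differed between classes: macrophage-like cells had medians of 21696, 20119, 32291 and 34685 UMIs in the combination, LNP-cGAMP, anti-PD-L1 and PBS, and neutrophil-like cells 2512.5, 2406, 2281 and 2092. Without thinning, 82.7%, 86.1%, 87.8% and 82.8% of macrophage-like cells had a Tmem173 UMI. Thinned to 1000 UMIs per cell, the shares were 11.4%, 16.3%, 12.1% and 7.87% of macrophage-like cells and 17.3%, 12.7%, 20.4% and 16.4% of dendritic cell-like cells. The lead of LNP-cGAMP over PBS in macrophage-like cells was thus present at equal depth, and the counting intervals of the dendritic cell-like shares overlapped. At the same depth 1.19%, 1.67%, 1.09% and 2.22% of neutrophil-like cells had a UMI. Unthinned, the neutrophil-like shares were 2.16% to 3.92%. Among unthinned macrophage-like cells, 20.8%, 20.5%, 28.7% and 27% had UMIs of both Mb21d1 and Tmem173, near the 19.1%, 20%, 27.4% and 25.9% that the product of the single shares gives.

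Between treatments, Tmem173 in macrophage-like cells was 2.18-fold higher in LNP-cGAMP than in PBS (95% interval 2.10 to 2.27) and 1.56-fold higher in the combination than in PBS (1.51 to 1.62). A gene was called when the fold was at least 1.5 in either direction, the interval left out 1, and both libraries together held at least 20 UMIs of it in the class. The combination over anti-PD-L1 was 1.22-fold, anti-PD-L1 over PBS 1.28-fold, and the combination over LNP-cGAMP 0.716-fold, none of them called. The class was made of different clusters in different libraries: cluster 17 (Ccl12, Ms4a7) and cluster 9 (Saa3, Tppp3) held most of it in LNP-cGAMP, cluster 6 (Cd163, Lyve1) and cluster 7 (Lyve1, Fcna) most of it in PBS, and the combination was a mix, with 689 cells in cluster 17 and 412 in cluster 7. The call of the combination over PBS rested on the settings. On the log2 scale the value was 0.64, and it was under the limit with a fixed minimum of 1000 UMIs (0.58), with up to 20% mitochondrial UMIs (0.57), with classes from marker scores (0.53), with 10 added to both levels (0.58) and with unnamed cluster 10 added (0.57). LNP-cGAMP over PBS was called under each of these, at 0.92 to 1.03. The 9 monocyte markers summed to 4894, 6880, 5127 and 3379 CPM in the macrophage-like cells of the combination, LNP-cGAMP, anti-PD-L1 and PBS, and the part of this in the Tmem173 difference was not tested.

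Across macrophage-like clusters of 1 library Tmem173 spanned a wider range than it did across libraries within a cluster. Cluster 17 held 213 CPM in the combination and 217 in LNP-cGAMP, with too few cells in the other libraries. Both values were above those of the dendritic cell-like class in the same libraries, 146 and 171 CPM. Cluster 4, the monocyte-marked cells (Vcan, Ccr2), held 154, 174, 151 and 120.2 CPM in the combination, LNP-cGAMP, anti-PD-L1 and PBS. It was the only cluster of the class with at least 50 cells in both LNP-cGAMP and PBS, and there the fold was 1.45 (1.28 to 1.64), not called. Cluster 5 (F13a1, Ccr2) held 149, 104, 156 and 129.9 CPM in the same order. The cavity-macrophage-marked clusters were lower: cluster 6 held 113, 91.4 and 78.3 CPM in the combination, anti-PD-L1 and PBS, cluster 7 held 65.0, 74.1 and 54.4, and cluster 8 (Alox15, Prg4) held 34.2, 45.1, 39.6 and 25.5 CPM in the combination, LNP-cGAMP, anti-PD-L1 and PBS. Cluster 9 differed most between libraries: it held 59.7 CPM in the combination and 117 in LNP-cGAMP, a fold of 0.509 (0.449 to 0.577).

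**Figure D2:**
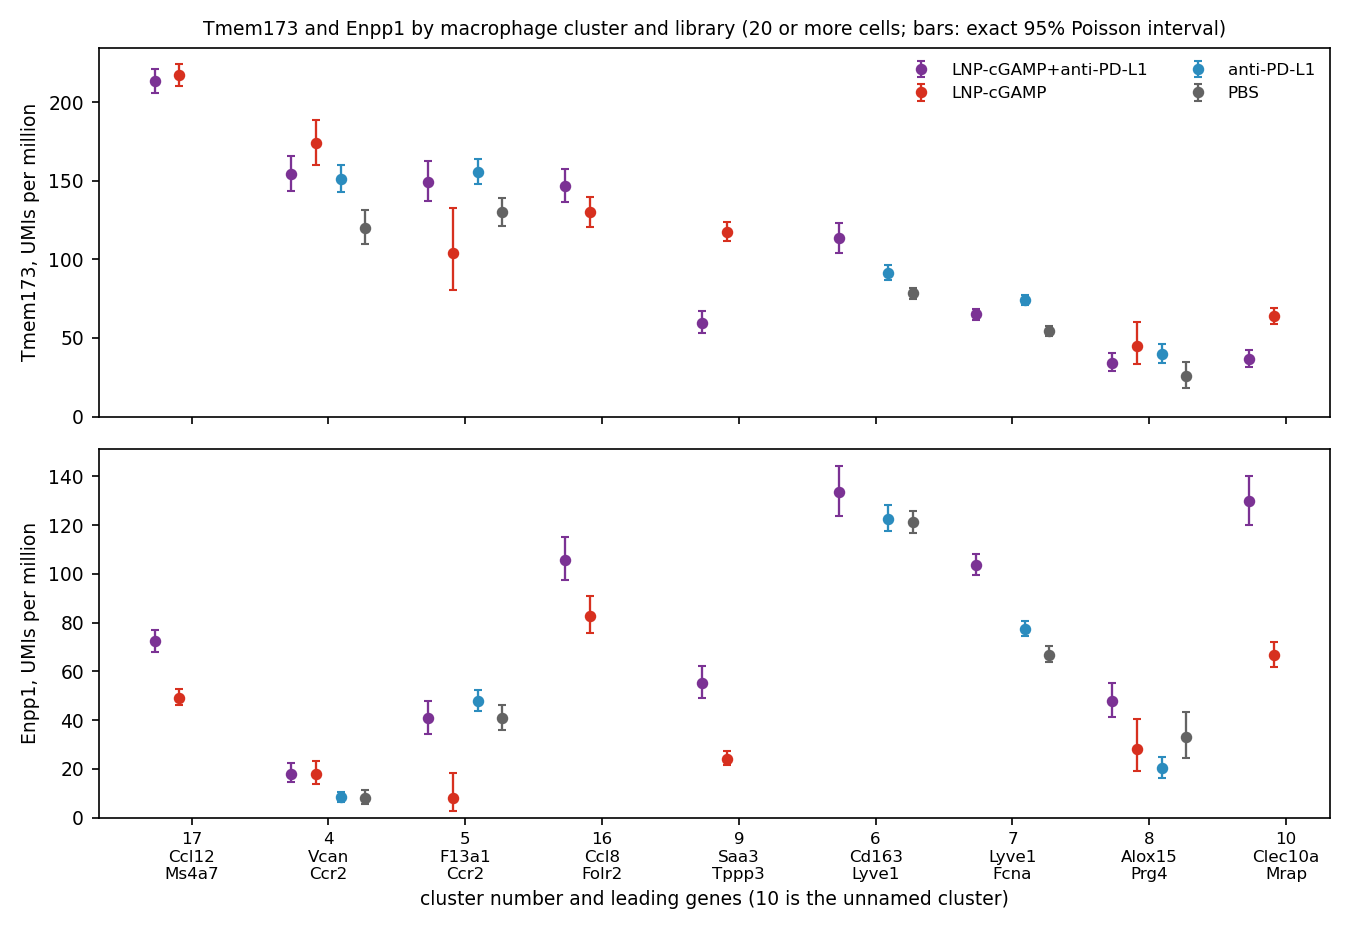
CPM of Tmem173 (upper panel) and Enpp1 (lower panel) in macrophage-scored clusters with 20 or more cells in a library, 1 point per library with the exact 95% Poisson interval. Tmem173 is highest in cluster 17 (213 and 217) and Enpp1 in cluster 6 (134, 123 and 121), which has no LNP-cGAMP value; in LNP-cGAMP Enpp1 is highest in cluster 16 (82.9). In cluster 9 the combination and LNP-cGAMP stand apart in both.

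Cells of called sex split the combination library further. Among its macrophage-like cells Tmem173 was at 120.3 CPM in 1485 female-called cells and at 48.0 in 310 male-called cells, a 2.51-fold difference (2.23 to 2.83). In anti-PD-L1 the values were 100.4 CPM in 1251 female-called cells and 90.9 in 603 male-called cells (1.104-fold). The male-called cells of the combination lay mostly in cluster 9 (71.3%) and cluster 8 (19.7%), while the female-called cells lay in cluster 17 (31.0%), cluster 7 (25.4%) and cluster 4 (14.5%). With male-called cells only, the combination was below PBS for Tmem173 (log2 fold -0.66) and LNP-cGAMP stayed above it (1.13). Each library pooled 3 mice, so the called sexes are different mice, and sex, mouse and dose received cannot be told apart.

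**Figure D3:**
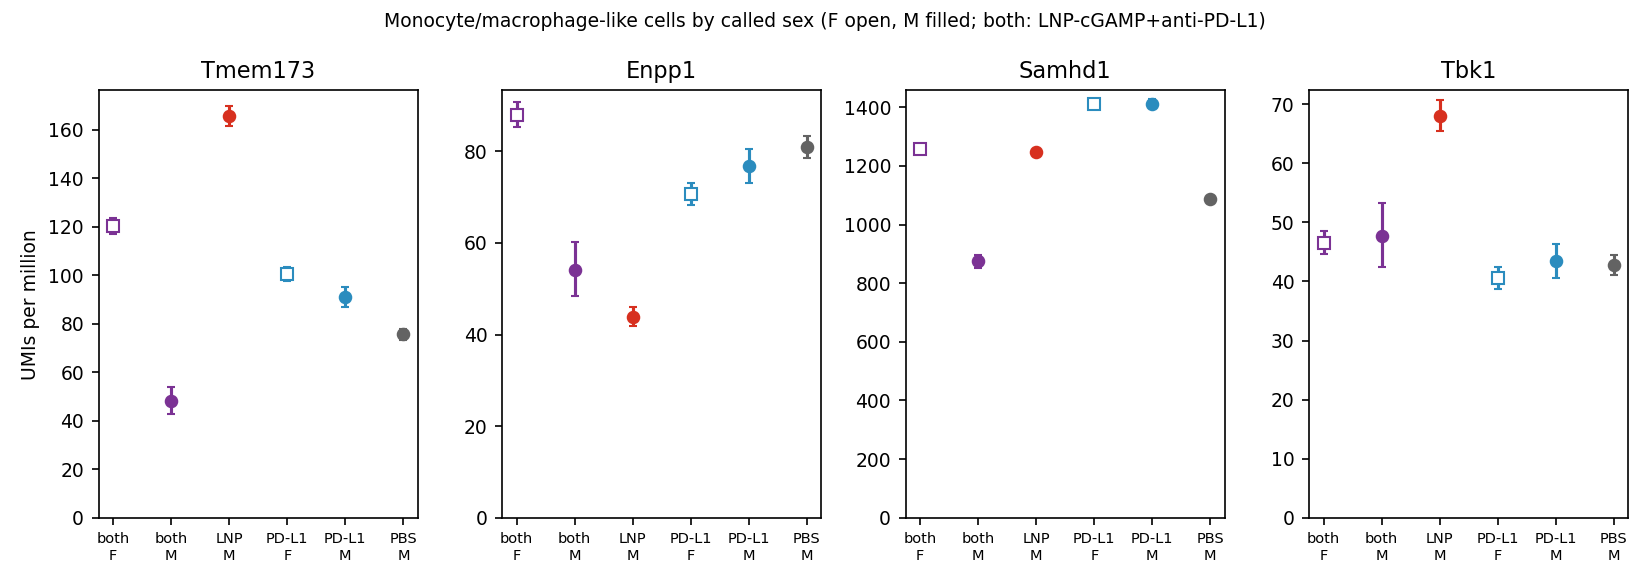
CPM of Tmem173, Enpp1, Samhd1 and Tbk1 in macrophage-like cells by called sex (F open squares, M filled circles) and library, with exact 95% Poisson intervals. In the combination ("both") female-called cells held 120.3 Tmem173 CPM and male-called cells 48.0, while Tbk1 was 46.6 and 47.6.

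Tbk1, the kinase that phosphorylates STING and IRF3, was detected in every compared class. In monocyte/macrophage-like cells it had 49.0, 68.6, 41.2 and 43.2 CPM in the combination, LNP-cGAMP, anti-PD-L1 and PBS. LNP-cGAMP stood above the other 3 libraries and was 1.59-fold PBS (1.504 to 1.675), which was called; with totals that leave out mitochondrial, ribosomal-protein and haemoglobin genes (0.57 on the log2 scale), with 10 added (0.56), or within cluster 4 (0.32) it was not. Neutrophil-like cells held 41.1, 39.5, 53.6 and 39.8 CPM, T cell-like cells 31.7, 41.3, 29.6 and 31.9, and dendritic cell-like cells 32.6, 31.4, 27.9 and 28.2. No Tbk1 fold was called in those 3 classes as a whole. Inside neutrophil-like clusters Tbk1 was called in opposite directions. In cluster 3 (G0s2, Il1b) it was higher than in PBS in the combination (3.02-fold, 1.42 to 6.99) and in anti-PD-L1 (2.296-fold, 1.13 to 5.16), with 27, 39 and 10 UMIs in the combination, anti-PD-L1 and PBS. In cluster 0 (Mmp9, Cxcr2) the combination was 0.569 of PBS (0.341 to 0.921) and 0.439 of anti-PD-L1 (0.266 to 0.702), with 24, 78 and 65 UMIs in the same order.

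Ikbke, which encodes the inducible kinase IKKε, was highest in monocyte/macrophage-like cells, with 75.9, 76.4, 66.1 and 54.2 CPM in the combination, LNP-cGAMP, anti-PD-L1 and PBS. There LNP-cGAMP over PBS was 1.41-fold (1.34 to 1.48) and below the limit for a call. Cluster 16 (Ccl8, Folr2), found in the libraries given cGAMP, had the highest cluster levels, 140.0 CPM in the combination and 116 in LNP-cGAMP. Dendritic cell-like cells went the other way: 34, 3, 36 and 76 Ikbke UMIs were counted in the combination, LNP-cGAMP, anti-PD-L1 and PBS, or 25.8, 3.77, 15.7 and 26.4 CPM. LNP-cGAMP was the low library, at 0.143 of PBS (0.0288 to 0.433), and the combination was at 6.85 times LNP-cGAMP (2.15 to 34.9). Both folds were still called with 10 added to both levels. Only 55 dendritic cell-like cells stand behind the LNP-cGAMP value. With classes from marker scores, 16 Ikbke UMIs were left in anti-PD-L1 and PBS together, and anti-PD-L1 over PBS was reversed (1.07 on the log2 scale). In the combination and PBS together 20 were left, and the combination over PBS was then called higher (2.27, against -0.03 as reported). LNP-cGAMP had too few cells for a value. Whether Ikbke in this class came from cells that score as monocyte/macrophage was not tested. The 5 cycling markers summed to 307, 25.1, 444 and 642 CPM in the dendritic cell-like cells of the combination, LNP-cGAMP, anti-PD-L1 and PBS, and their part in the result was not tested.

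Irf3, the factor activated at the end of the chain, was nearly level. Monocyte/macrophage-like cells held 28.4, 33.1, 25.2 and 28.5 CPM in the combination, LNP-cGAMP, anti-PD-L1 and PBS. T cell-like cells held 39.1, 47.3, 36.1 and 38.3 CPM, dendritic cell-like cells 32.6, 33.9, 23.5 and 28.2, and neutrophil-like cells 24.8, 28.2, 26.1 and 34.7. None of its 20 folds was called. A stretch of 88 exonic bases (2.56%) is shared with Bcl2l12 on the other strand.

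**Figure D4:**
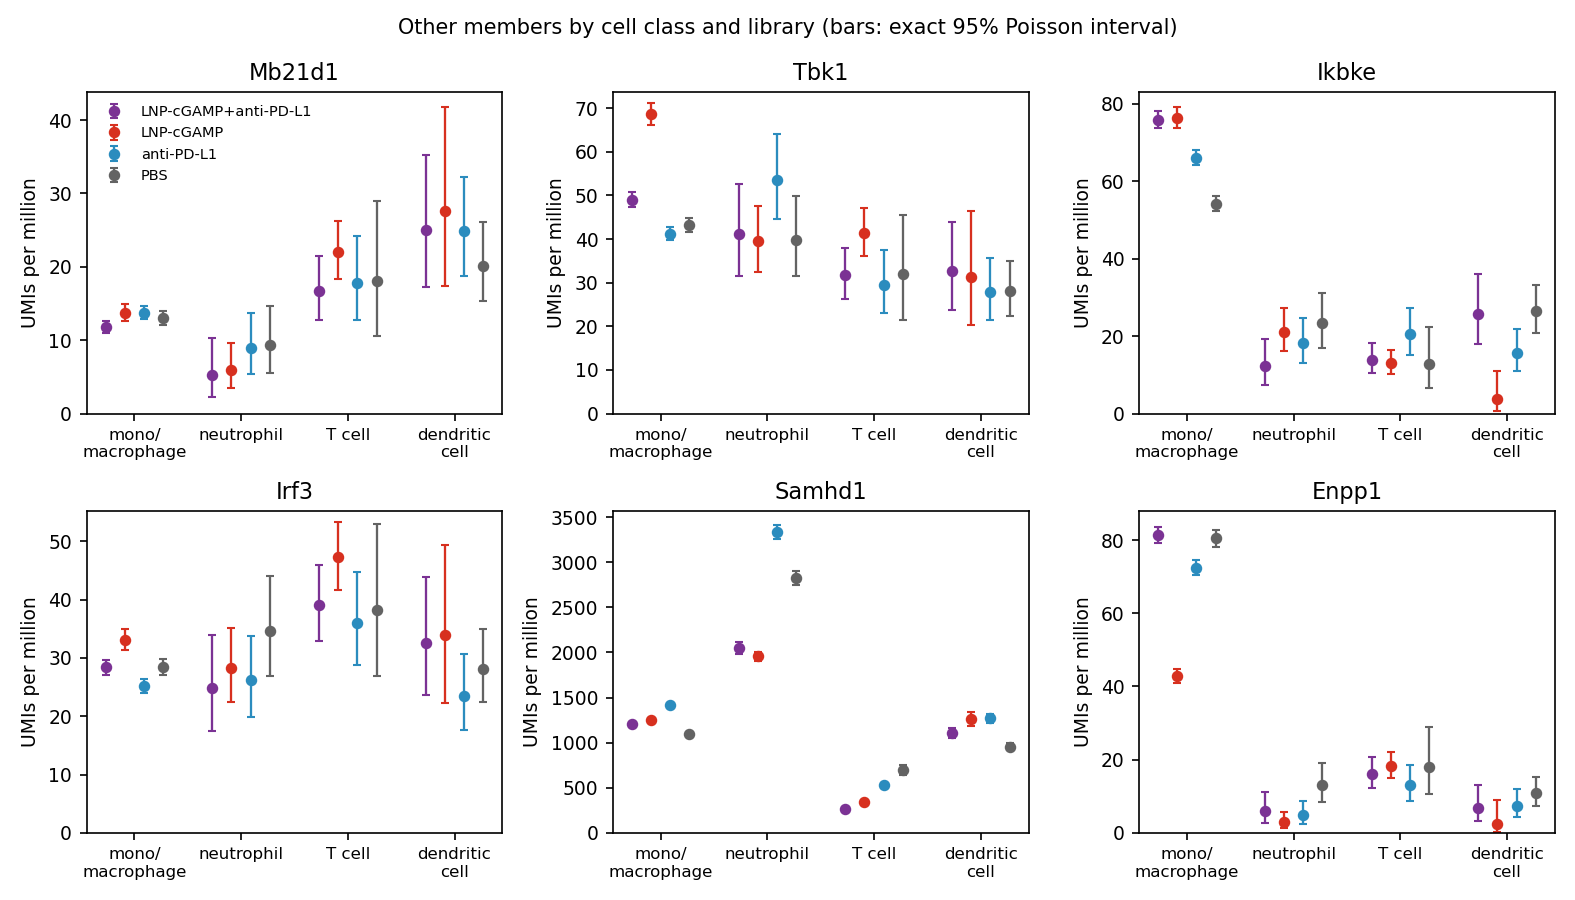
CPM of 6 further genes in the 4 compared classes (x axis), 1 point per library with the exact 95% Poisson interval, each panel with its own y scale. Tbk1 stands out in LNP-cGAMP macrophage-like cells (68.6), Ikbke is at 3.77 in LNP-cGAMP dendritic cell-like cells, and Samhd1 in T cell-like cells is at 267 in the combination and 692 in PBS.

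Samhd1, the dNTP hydrolase that restricts retroviruses, was highest in neutrophil-like cells and lowest in tumour-like (97.6 to 216 CPM) and NK cell-like cells (134 to 312 CPM). T cell-like cells held 267, 337, 525 and 692 CPM in the combination, LNP-cGAMP, anti-PD-L1 and PBS, so that both libraries given cGAMP lay below both that were not. LNP-cGAMP was 0.487 of PBS (0.446 to 0.534) and the combination 0.510 of anti-PD-L1 (0.468 to 0.555), comparisons that share no library. The combination was 0.386 of PBS (0.349 to 0.427). T cell-like cells had 2 clusters, and cluster 13 (Gzmb, Cd8a) held 221, 289, 373 and 505 CPM against 813, 660, 993 and 1128 in cluster 15 (Il7r, Tcf7). Cluster 13 held 115, 166, 70 and 32 of the T cell-like cells, so its share was larger in the libraries given cGAMP. The 11 neutrophil markers summed to 143, 480.3, 474 and 1907 CPM in T cell-like cells in the same order, and the part of either in the difference was not tested. Within cluster 13 the combination over anti-PD-L1 was still called, at 0.594 (0.534 to 0.660). At clustering resolution 0.5 the call of the combination over anti-PD-L1 was lost (-0.03 on the log2 scale, on 969 UMIs). There the class was a single cluster (Gzmb, Cd8a) of 334 cells, with 108 in the combination and 51 in anti-PD-L1. Il7r and Tcf7 were then among the leading genes of the NK cell-like cluster. Why this value differs from that of cluster 13 was not tested.

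Neutrophil-like cells held 2049, 1958, 3332 and 2826 Samhd1 CPM in the combination, LNP-cGAMP, anti-PD-L1 and PBS. Again both libraries given cGAMP were the low ones, and the combination was called at 0.615 of anti-PD-L1 (0.590 to 0.641), while LNP-cGAMP over PBS was 0.693 and not called. The class was made of different clusters: cluster 2 (Ngp, Camp) held 68, 462, 16 and 12 cells in the combination, LNP-cGAMP, anti-PD-L1 and PBS, and its Samhd1 level was 1612 CPM in the combination and 1314 in LNP-cGAMP. Within clusters 0 and 3 LNP-cGAMP was 0.874 and 0.878 of PBS, while the combination was called at 0.601 and 0.614 of anti-PD-L1. The other myeloid classes had another order. Monocyte/macrophage-like cells held 1206, 1256, 1419.7 and 1091 CPM and dendritic cell-like cells 1107, 1260.1, 1268 and 956. No Samhd1 fold was called in those classes.

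Enpp1, the enzyme that cleaves extracellular cGAMP, was mainly a macrophage transcript. Monocyte/macrophage-like cells held 81.4, 42.8, 72.5 and 80.4 CPM in the combination, LNP-cGAMP, anti-PD-L1 and PBS. LNP-cGAMP was the low library, at 0.532 of PBS (0.504 to 0.562), and the combination was 1.90-fold LNP-cGAMP (1.80 to 2.01) and 1.12-fold anti-PD-L1. No other compared class exceeded 18.2 CPM in any library, and dendritic cell-like cells had only 9, 2, 17 and 31 UMIs. Tumour-like cells had 7, 0, 19 and 7 Enpp1 UMIs. B cell-like cells, too few to be compared, held 7.98 to 55.0 CPM, on 23 UMIs over all libraries.

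The class-level fall of Enpp1 in LNP-cGAMP was not seen inside the cluster that could be compared. Cluster 4 held 18.0, 17.8, 8.42 and 7.88 CPM in the combination, LNP-cGAMP, anti-PD-L1 and PBS, so that LNP-cGAMP was 2.26-fold higher than PBS (1.45 to 3.60) and the combination 2.14-fold higher than anti-PD-L1 (1.54 to 2.97). Cluster 16 held 106 CPM in the combination and 82.9 in LNP-cGAMP, where it was the highest cluster. In the other 3 libraries the highest level was in cluster 6, with 134, 123 and 121 CPM in the combination, anti-PD-L1 and PBS; that cluster had too few cells in LNP-cGAMP to be shown. Cluster 7 held 104, 77.4 and 66.9 CPM in the same 3 libraries, where the combination was 1.55-fold PBS (1.45 to 1.66). Unnamed cluster 10 (Clec10a, Mrap), which scored for macrophage markers, held 129.9 CPM in the combination and 66.8 in LNP-cGAMP. By called sex, macrophage-like cells of the combination held 88.0 CPM in female-called and 54.0 in male-called cells, and those of anti-PD-L1 70.7 and 76.7. With male-called cells only, the combination over LNP-cGAMP was not called (0.30 on the log2 scale).

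**Figure D5:**
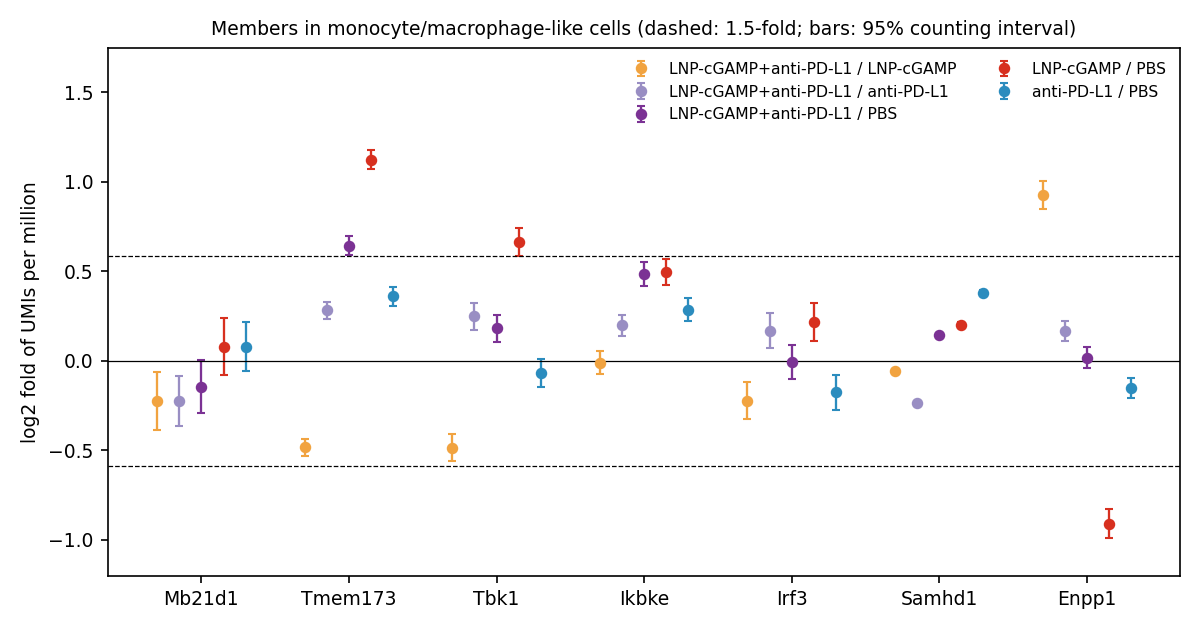
Log2 fold of CPM (y axis) of the 7 measured genes in macrophage-like cells for the 5 comparisons, with 95% counting intervals; dashed lines mark 1.5-fold. Past the lines are Tmem173 in LNP-cGAMP over PBS (1.13) and the combination over PBS (0.64), Tbk1 in LNP-cGAMP over PBS (0.67), and Enpp1 in LNP-cGAMP over PBS (-0.91) and the combination over LNP-cGAMP (0.93).

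Counted together, 2 of 7 measured genes were called higher (Tmem173 and Tbk1) and 1 lower (Enpp1) in macrophage-like cells of LNP-cGAMP against PBS, where 15.6% of 12158 genes were called higher and 15.6% lower. With so many genes called, 3 of 7 is near the background. The genes' median log2 fold was 0.22, beside 0.06 over all genes. The combination against PBS gave 1 higher of 7 (7.7% of genes higher, 4.68% lower), the combination against LNP-cGAMP 1 higher (11.3% and 6.6%), the combination against anti-PD-L1 0 (4.67% and 3.79%) and anti-PD-L1 against PBS 0 (4.21% and 2.18%). The comparisons against PBS share the PBS library.

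In T cell-like cells as a whole only Samhd1 was called: lower in LNP-cGAMP against PBS (8.57% of genes called lower, 6.68% higher), in the combination against PBS (5.89% higher, 11.2% lower) and in the combination against anti-PD-L1 (4.6% higher, 11.3% lower). In anti-PD-L1 against PBS (3.33% higher, 3.4% lower) and the combination against LNP-cGAMP (1.56% higher, 5.46% lower) there were 0. Dendritic cell-like cells had 2 lower in LNP-cGAMP against PBS, Ikbke and Enpp1 (8.87% of genes higher, 11.2% lower), 1 lower in anti-PD-L1 against PBS, Ikbke (2.74% higher, 4.28% lower), 1 higher of 6 measured in the combination against LNP-cGAMP, Ikbke (7.31% higher, 7.27% lower), and 0 in the combination against PBS (4.15% higher, 6.06% lower) or against anti-PD-L1 (3.54% and 3.71%).

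With class totals as counted, neutrophil-like cells as a whole had calls in 1 direction only, lower. They were Enpp1 in LNP-cGAMP against PBS (4.94% of genes higher, 20% lower), Tmem173 and Enpp1 in anti-PD-L1 against PBS (2.32% higher, 16.9% lower), Tmem173 and Ikbke in the combination against PBS (3.22% higher, 22.3% lower), Samhd1 in the combination against anti-PD-L1 (4.01% higher, 5.67% lower) and Ikbke, of 6 measured, in the combination against LNP-cGAMP (2.99% higher, 7.34% lower). The median of all genes was itself at -0.26, -0.25 and -0.37 on the log2 scale for LNP-cGAMP, anti-PD-L1 and the combination against PBS, so the PBS library stood apart. With the totals rescaled (TMM), the Tmem173 call of anti-PD-L1 against PBS was lost (-0.70). Tbk1 was then called higher in that comparison (0.68, on 198 UMIs). The 6 erythroid markers summed to 1.96, 8.12, 7.53 and 1622 CPM in neutrophil-like cells of the combination, LNP-cGAMP, anti-PD-L1 and PBS, with 1, 3, 4 and 5 of them detected. The 13 macrophage markers summed to 1269, 999, 619.9 and 1691 CPM. With free RNA subtracted no Enpp1 was left in PBS neutrophil-like cells (-2.43 CPM), so neither Enpp1 call against PBS had a fold, and the Tmem173 calls of the combination (log2 fold -0.22) and anti-PD-L1 (-0.42) were lost, as were both Ikbke calls of the combination. The part of the marker sums in the neutrophil-like folds against PBS was not tested, and those of Tmem173 and Enpp1 rest on 8 to 38 UMIs per library.

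Around the pathway, 7 lists of related genes were counted in macrophage-like cells, first for LNP-cGAMP against PBS, where 15.6% of all genes were called higher and 15.6% lower (median of all genes 0.06). Of 12 measured genes for cGAMP entry, export and hydrolysis, 1 was higher and 3 lower (median log2 fold 0.11). Slc46a3, a cyclic dinucleotide carrier, had 2.93, 4.498, 1.53 and 2.26 CPM in the combination, LNP-cGAMP, anti-PD-L1 and PBS (LNP-cGAMP over PBS 1.99-fold, the combination over anti-PD-L1 1.92-fold). Slc19a1, the folate carrier that also imports cyclic dinucleotides, had 4.55, 2.11, 7.38 and 8.15 CPM (0.259 and 0.617). These carriers thus differed in opposite directions in both comparisons, at low levels.

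Of 23 genes for STING traffic, modification and decay, 1 was higher and 2 lower (median -0.05). Of 17 kinase scaffolds and NF-kB genes 5 were higher and 0 lower (0.48). Of 18 other nucleic acid sensors 10 were higher and 0 lower (0.68), among them Tlr9, the endosomal DNA receptor, at 0.615, 0.934, 0.280 and 0.170 CPM. Of 13 nucleic acid clearance genes 4 were higher and 6 lower (-0.22), with the secreted nuclease gene Dnase1l3 at 4.52, 3.39, 2.87 and 1.02 CPM. Of 10 interferon output and receptor genes 6 were higher and 0 lower (0.77), and Irf7, the factor that amplifies interferon, had 638, 1203, 360.2 and 244 CPM in the combination, LNP-cGAMP, anti-PD-L1 and PBS. All 12 interferon response genes used as reference were higher (2.11).

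In macrophage-like cells of the combination against anti-PD-L1 (4.67% of all genes higher, 3.79% lower, median 0.01) the counts were smaller. For the lists with 1 gene in a direction the share is near that of all genes. The entry list had 1 higher and 1 lower, the sensor, clearance and interferon output lists 1 higher each, the STING traffic and scaffold lists 0 of 23 and 0 of 17, and the interferon reference 5 higher of 12 (median 0.49). Ifi44, Ifit3, Rsad2 and Ccl5 were called in both comparisons. Isg15, a ubiquitin-like interferon target, had 422, 839.7, 293 and 184 CPM in the combination, LNP-cGAMP, anti-PD-L1 and PBS, and the chemokine Ccl5 had 207, 388, 7.38 and 5.25. Ifnb1, the interferon gene that IRF3 switches on, had 1, 0, 0 and 0 UMIs in these cells, so that 48 h after treatment its transcript was not detectable at this depth in the macrophage-like cells of 3 libraries.

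In the other classes the listed genes called in both of these comparisons were few. The share of all genes called in both was not counted. Neutrophil-like cells had higher Tlr7, Mnda, Ifi204 and Ccl5 and lower Traf2, an adaptor of the NF-kB arm. Ifi204, a DNA-binding sensor that feeds STING, had 830.3, 1032, 482 and 250.0 CPM in the combination, LNP-cGAMP, anti-PD-L1 and PBS. T cell-like cells had lower Trim56, Tnfaip3, Rnaset2a, Cxcl10 and Oasl2 and higher Mx1. Trim56, a ubiquitin ligase reported to act on STING and cGAS, had 15.9, 26.9, 33.0 and 50.03 CPM, an order like that of Samhd1 in the same cells. Dendritic cell-like cells had higher Nfkbia, the NF-kB inhibitor, at 269.5, 333, 170.4 and 164 CPM, and lower Rnaseh2b and Fen1.

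Over the 16 combinations of class and library, 4873 genes were compared in level with the genes of the pathway that had at least 20 UMIs in each. The nearest to Samhd1 were Gdap10, Il13ra1 and Gbp2 (Pearson r of log2 levels 0.98, 0.98 and 0.97). The nearest to Tbk1 were Cryzl1 (0.90), Prdx6 (0.87) and Slc28a2 (0.87), and to Irf3 Ndfip2 (0.87), Ppp1r35 (0.86) and Nelfb (0.85). The 16 points share 4 libraries and 4 classes, so these values describe likeness between classes as much as between treatments.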

How the data were processed

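The authors deposited counts of UMIs (whole numbers) for each gene and droplet barcode. Per the file headers the matrices came from Cell Ranger 3.0.2, on mm10 per the submitters' processing notes. The annotation and the kit version (the labels name different ones) were not settled here. Barcodes were kept above the valley of each library's UMI density (minimum 861 to 989), with at least 200 genes and at most 10% mitochondrial UMIs. Cells were clustered with scanpy 1.11.5 (Leiden, resolution 1; igraph 0.11.9) without the pathway genes, interferon response, sex-linked and other nuisance genes, and clusters were named from marker lists. No doublet caller was used; the top 5% of cells by UMIs were left out as an alternative. UMIs were summed per class and library and divided by class totals (CPM). Intervals are exact (Poisson, Clopper-Pearson, or conditional binomial for folds; scipy 1.17.1), at 95%. TMM factors came from edgeR 4.0.16. The calling step was checked on simulated Poisson counts. These held no variation between mice, sexes or cluster make-up, so the check cannot speak to such variation. Coordinates are from GENCODE on GRCm38 and promoters from RefSeq. A further promoter motif that was searched is not reported here. Named genes were all 8 pathway genes and, per list and class, up to 4 called the same way in LNP-cGAMP against PBS and the combination against anti-PD-L1; likeness used the 3 best of genes reaching 50 CPM. The genes, lists and tests were chosen with earlier results of these data known.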

Additional observations from a re-analysis of the deposited data

Results flagged for a closer look

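The differences between folds below are on the log2 scale, first minus second, and none of them was tested, since each treatment had 1 library. No group had 4 or more samples, so no single sample was compared with the rest of its group.

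Samhd1 differed in direction between classes. For LNP-cGAMP against PBS the macrophage-like fold was above 1 and the neutrophil-like and T cell-like folds below it, with differences of 0.732 (macrophage-like minus neutrophil-like) and 1.24 (macrophage-like minus T cell-like). Dendritic cell-like cells also lay above 1, and the differences were -0.927 (neutrophil-like minus dendritic cell-like) and -1.43 (T cell-like minus dendritic cell-like). Its direction also differed with and without anti-PD-L1. LNP-cGAMP against PBS minus the combination against anti-PD-L1 was 0.439 in macrophage-like and 0.594 in dendritic cell-like cells. The folds were 1.15 and 0.849 in macrophage-like and 1.32 and 0.873 in dendritic cell-like cells, none of them called. Of the Samhd1 folds of LNP-cGAMP against PBS, only that of T cell-like cells was called.

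Ikbke in LNP-cGAMP against PBS was 1.41-fold in macrophage-like cells, not called, and called lower in dendritic cell-like cells, a difference of 3.31 that rests on 3 UMIs in the dendritic cell-like cells of LNP-cGAMP. Enpp1 in macrophage-like cells was lower in LNP-cGAMP than in PBS but not lower in the combination than in anti-PD-L1, a difference of -1.08.

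In the combination against anti-PD-L1, Tmem173 in macrophage-like cells was 1.20-fold in female-called and 0.527-fold in male-called cells, a difference of 1.18. Enpp1 was 1.25-fold in female-called and 0.704-fold in male-called cells, a difference of 0.823. The male-called cells of the combination were 310 and lay mostly in cluster 9 (71.3%).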

How the results depend on the processing

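No paired analysis was possible because each treatment had 1 library, so no replicate could be left out either. Recalculated under the alternatives, 1744 folds of single genes kept the call as reported and 85 did not. The counts of genes called that moved by more than 1.5 times are given by setting, each with the reported count after "from". Counts within a cluster are given for macrophage-like cells, for which they were planned.

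In macrophage-like cells the combination against PBS gave 0 called genes (from 1) with a fixed minimum of 1000 UMIs, with up to 20% mitochondrial UMIs, with classes from marker scores, with 10 added to both levels, with unnamed cluster 10 added (a setting chosen after seeing the data), and within clusters 5 and 6. With male-called cells only it gave 2, with Tmem173 reversed at -0.66 on the log2 scale, the combination against anti-PD-L1 gave 3 (from 0), and the combination against LNP-cGAMP gave 2 (from 1). LNP-cGAMP against PBS gave 1 (from 3) within cluster 4, where Enpp1 was reversed at 1.18. The combination against anti-PD-L1 (from 0) gave 1 within clusters 4 and 5 and 2 within cluster 8. The combination against LNP-cGAMP (from 1) gave 0 within clusters 4, 16 and 17 and 3 within cluster 9.

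In neutrophil-like cells LNP-cGAMP against PBS (from 1) gave 2 with a minimum of 1000 UMIs, at resolution 2 and without the top 5% of cells. With background RNA subtracted it gave 1, Samhd1 in place of Enpp1, since Enpp1 in PBS fell below 0 and had no fold. Anti-PD-L1 against PBS (from 2) gave 1 with 10 added and 0 with background subtracted or male-called cells only. The combination against PBS (from 2) gave 0 with a minimum of 1000 UMIs, TMM scaling, background subtracted or 10 added, 1 at resolution 2, and 4 with cells weighted equally. The combination against LNP-cGAMP (from 1) gave 0 with a minimum of 1000 UMIs, at resolution 2, with marker scores, background subtracted, TMM scaling or 10 added.

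In T cell-like cells leaving out the top 5% gave 2 in LNP-cGAMP against PBS (from 1) and 1 in anti-PD-L1 against PBS (from 0), which equal weights also gave. Resolution 0.5 gave 0 in the combination against anti-PD-L1 (from 1) and 1 in the combination against LNP-cGAMP (from 0).

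In dendritic cell-like cells LNP-cGAMP against PBS (from 2) gave 1 with background subtracted, male-called cells only or without the top 5%. Anti-PD-L1 against PBS (from 1) gave 0 with marker scores, where Ikbke was reversed at 1.07, or 10 added, and 2 with equal weights. The combination against PBS gave 2 (from 0) with marker scores and the combination against anti-PD-L1 gave 1 (from 0) with background subtracted. The combination against LNP-cGAMP (from 1) gave 2 with equal weights. The cause of these changes was not tested. Classes with too few cells in a library gave no value. This held for T cell-like cells against PBS at resolution 0.5 and for dendritic cell-like cells of LNP-cGAMP with marker scores. It also held for most male-called cells outside the macrophage-like class in the combination. Some classes under 50 cells in a library were still given a value. Male-called dendritic cell-like cells of LNP-cGAMP, 35 in cluster 12 and 9 in cluster 14, were among them. In classes other than macrophage-like the counts of Mb21d1, Ikbke and Enpp1 limit what can be seen.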
